A study of Mus musculus with 24 samples.

Results

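The comparison set 6 severely against 7 mildly hydronephrotic kidneys, 13 of the 24 whole kidneys of the series, with groups taken from the sample titles. All 13 kidneys came from male young adult mgb-/- mice, so the mutation was common to both sides and the groups differed in grade, which the study set by ultrasound from the parenchyma that was preserved. The remaining arrays held 5 moderately hydronephrotic kidneys of male young adult mgb-/- mice and 6 kidneys of male young adult mgb+/+ controls. They entered the estimate of the spread and are given here for reference. The mgb mouse is 1 mutant line in which the bladder wall lacks normal smooth muscle, so the obstruction is congenital and acts on the kidney from below. Total RNA of each kidney was labelled with Cy3 and hybridised to 1 one-colour Agilent array. Whether any pair of kidneys came from 1 animal is not given in the labels, and the p-values measure no more than the spread between these samples.

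The renal pelvis is lined by urothelium, a stratified epithelium whose basal cells carry keratins and desmosomes and whose umbrella cells cover the urinary surface with uroplakin plaques delivered by vesicles. Stratified epithelia elsewhere share parts of this equipment, such as the precursors of the cornified envelope, very long chain ceramides and the grainyhead and AP-2 transcription factors. The study singled out 13 urothelial genes in these same kidneys, among them uroplakins, Krt14 and Krt18, so that list is described here without being read as independent evidence. In RNA of a whole kidney, fewer cells of a type and less RNA per cell cannot be told apart.

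Levels are log2 intensities relative to each array's 75th percentile, so they compare kidneys for 1 probe and not probes with each other. The 75th percentile lay between 496 and 968 intensity units on the 24 arrays, between 56.6% and 71.5% of spots were well above background, and no spot was saturated. The array of severe replicate 4 had lost 687 spots inside a rectangle that holds 32.0% of its spots, where no other array had lost more than 2. In the rectangle, 541 genes were read by a lost spot, so the falls were also called with this area left out, a choice made after seeing the data. Severe replicate 5 stood apart in its marker genes. The 4 adrenal gland markers that were read averaged 6.31 log2 units above the mild mean in mild replicate 4, and the 5 adipocyte markers averaged 5.06 below it in mild replicate 1. None of these markers was called, and their part in the results was not tested.

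Severe kidneys differed from mild ones mainly in genes that were higher. Of 27958 genes and transcripts read, 117 rose by at least 2-fold at an adjusted p under 0.05, which is 0.418%, and 2 fell, which is 0.00715%. Of the 117 rises, 102 had a gene symbol, and 104 lay outside the study's list of 13. The median log2 change over all genes was -0.01. Every one of the 13 listed genes was called, with log2 changes from 1.77 for Krt18, a keratin of simple epithelia, to 3.18 for Gjb6, a gap junction protein, and a median of 2.78. Krt18 was called in 14 of 44 alternative settings and had an adjusted p of 0.087 with the slide as a block. The 104 other rises are taken up by what their products do. For 4 of the 117 rises the probe was not well above background on any mild array. Their fitted log2 changes rest on mild readings below background, so a minimum fold is given where they are taken up. No mild kidney overlapped any severe kidney in 57 of the 117 rises, while 0.497% of all genes read separated the groups this way with severe higher. Without the fold minimum 135 genes were higher (0.483%) and 11 lower (0.0393%). Just inside the fold minimum lay Tyro3 at 1.00, and just outside it Cbr2 at 0.97.

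The calls leaned on the spread of all 4 groups. A fit to the 13 arrays alone called no gene, with a lowest adjusted p of 0.0942, although 325 genes were higher and 79 lower by 2-fold at an unadjusted p under 0.05. With all 24 arrays 339 genes (1.21%) were higher and 136 (0.486%) lower at that unadjusted threshold. A fit with 1 variance per group, in which severe arrays weighed least, called 18 rises and no fall. Leaving out severe replicate 2 left 48 rises, and leaving out severe replicate 5 or mild replicate 5 left 62 each. Of the genes named in the text, Krt18, Ivl, Tmprss11a, Ankrd22, Capn13, Krt13, Grhl1, Nfe2l3, Gsdma, Crabp2, Galnt6, Hsd17b2, Ankrd35, Fmo5, S100a6, S100a14, Bmp3, Bmp8b, Sfn, Ptpro, Cyp2d12 and Cyp2d22 lost their call without severe replicate 2 and also without severe replicate 5. Serpinb5, Fer1l4, Tfap2c, Acer2, Elovl4, Cd200r3 and Rhov lost theirs without severe replicate 2 but kept it without severe replicate 5. All 117 rises were positive within each of the 3 slides, which follows in part from the choice of the genes on these same arrays.

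The kidneys formed a graded series over the 104 rises outside the study's list. Averaged over these genes, the mild kidneys ranged from -0.77 in replicate 5 through a median of -0.14 to 1.13 in replicate 2, as log2 differences from the mild mean. The severe kidneys ranged from 1.26 in replicate 6 through 1.94 to 2.89 in replicate 2. The groups did not overlap, which follows in part from the choice of the genes, and mild replicate 2 lay just under severe replicate 6. The moderate kidneys, which did not enter the difference, ran from -0.14 to 1.25, and the controls from -0.69 to -0.07. For 115 of the 117 rises the moderate mean fell between the mild and the severe mean. The choice of genes with low mild and high severe levels favours this, and the share over all genes was not computed. Moderate replicate 5 was the lowest moderate kidney and lay among the mild ones.

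**Figure D1:**
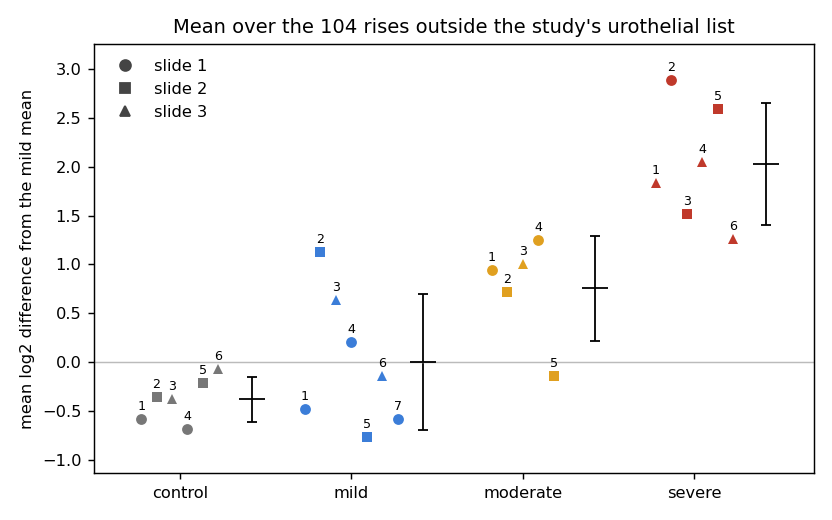
Mean log2 difference from the mild group mean over the 104 called rises outside the study's urothelial list (y axis) for each kidney by group (x axis), with replicate numbers beside the points, the point shape for the slide, and bars for the group mean ± SD. The 6 severe kidneys lie between 1.26 and 2.89, the 7 mild kidneys between -0.77 and 1.13, and the values for the damaged area of the array of severe replicate 4 are left out.

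Slide and grade were not balanced. Slide 1 held 3 mild kidneys and severe replicate 2 only, slide 2 held 2 of each, and slide 3 held 2 mild and 3 severe kidneys. The median log2 change of the 117 rises was 3.28 within slide 1, 1.96 within slide 2 and 1.54 within slide 3, so the largest within-slide value rested on severe replicate 2. With the slide as a block 94 rises and no fall were called.

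Keratins and proteins of cell contacts are taken first. Krt15, a keratin of basal cells in stratified epithelia, shared the lowest adjusted p of all genes with Arhgap40 and Fam25c. Its level in the mild kidneys was -3.30 at the lowest, -2.28 at the median and -1.39 at the highest, against -0.02, 0.35 and 2.03 in the severe kidneys. Every severe kidney lay above every mild one, and severe replicate 2 stood alone at the top. The log2 change was 3.02 (SE 0.36, adjusted p = 0.000543, limma), or 8.10-fold, and an exact two-sided permutation test over the kidneys gave p = 0.000583, the smallest that 6 against 7 kidneys allow. Krt15 was named for its large rise in these same kidneys, so this unadjusted p is no separate support. Krt15 was called under 42 of 44 alternative settings. Krt13, a keratin of the suprabasal layers of non-cornified epithelia, rose by 1.63 (SE 0.33, adjusted p = 0.021), again with no overlap, though a second, dimmer probe for Krt13 read 0.68. These were the 2 called members of a list of 12 keratins that leaves out those of the study, all 12 of which had a positive change and whose median was 1.08. Krt42, a keratin that the list does not hold and that was named after its values were seen, was also called, at 2.40 (adjusted p = 0.049). The mild and severe kidneys overlapped for Krt42, and it was called under only 14 of 44 alternative settings. Whether Krt42 kept its call without single severe arrays is not given here.

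Pkp1, the plakophilin that ties keratin filaments to desmosomes in stratified epithelia, had levels of -4.86, -3.35 and -2.02 in the mild kidneys, given as lowest, median and highest, and of -1.64, -0.72 and 0.43 in the severe ones. The groups did not overlap, and the log2 change was 2.99 (SE 0.46, adjusted p = 0.0040). Within the slides it was 4.53, 3.01 and 1.74. Pkp1 was the 1 called gene among 14 desmosome and hemidesmosome genes that were read, and the list's median was 0.36. Snx31, a sorting nexin that binds uroplakins in umbrella cells, had levels of -7.21, -5.35 and -4.62 in the mild kidneys and of -3.26, -3.14 and -1.84 in the severe ones. Again no kidneys overlapped, and the log2 change was 2.60 (SE 0.37, adjusted p = 0.0036), against 1.24 in the authors' table.

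**Figure D2:**
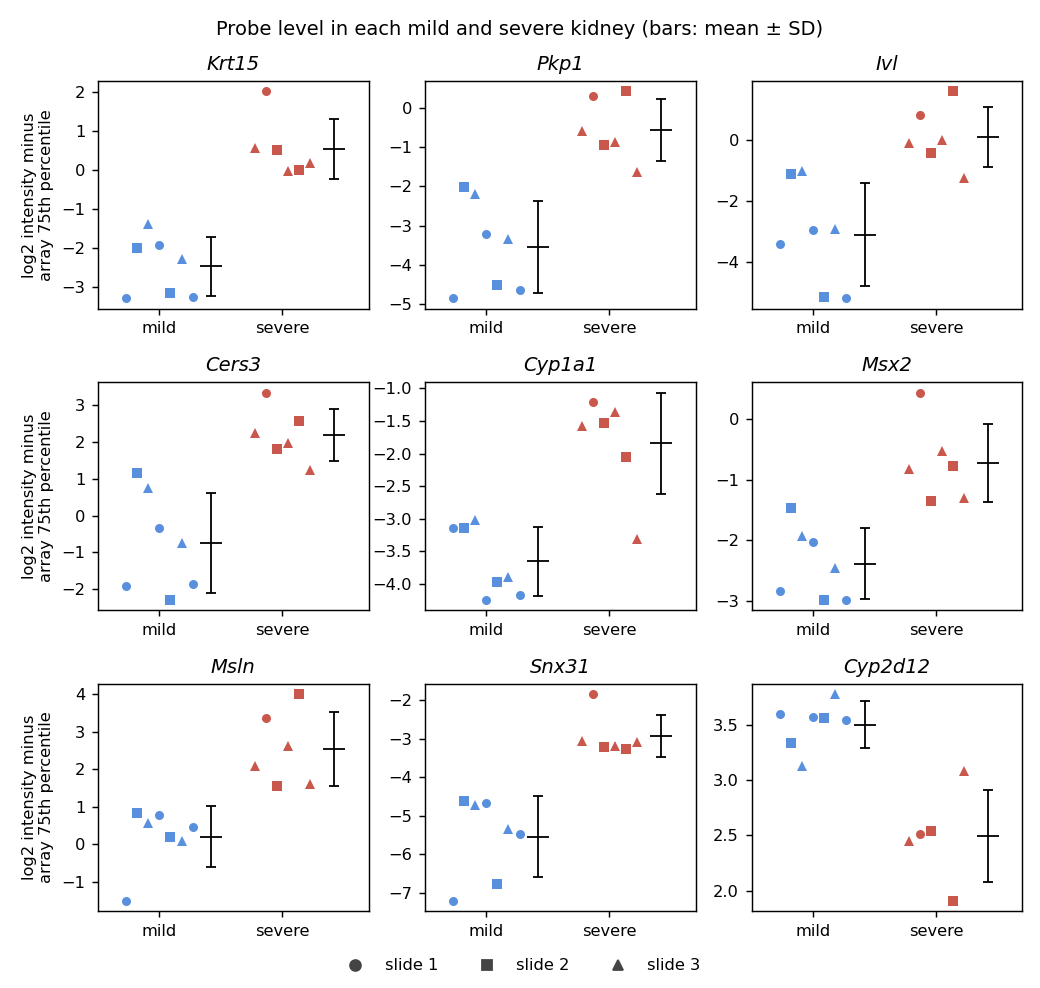
Level of 9 called genes in each mild and severe kidney (y axes: log2 intensity minus the array's 75th percentile; x axes: group), with the point shape for the slide and bars for the mean ± SD of 7 mild and 6 severe kidneys, 5 severe for Cyp2d12. Krt15, Pkp1, Cers3, Msx2, Msln and Snx31 show no overlap, Ivl and Cyp1a1 have 1 severe kidney within the mild range, and Cyp2d12 is lower in every severe kidney measured.

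Genes known from the cornified envelope and the surface of the epidermis gave 1 call among 14 members read outside the study's list. This was Ivl, involucrin, a scaffold of the envelope, whose level was -5.19 at the lowest and -2.95 at the median in the mild kidneys, against -1.23 and -0.03 in the severe ones, where the highest was 1.61. Mild replicate 3, the highest mild kidney, lay above severe replicate 6, while the other 5 severe kidneys lay above every mild one. The log2 change was 3.22 (SE 0.66, adjusted p = 0.024). The call for Ivl was lost with the slide as a block, at an adjusted p of 0.0654, without severe replicate 2 or 5, at 0.0883 and 0.0933, and without mild replicate 1, 5, 6 or 7. The list's median was 0.64, and its small proline-rich members Sprr2f and Sprr2g changed by 3.75 (SE 1.62) and 3.44 (SE 1.06) without passing the test, at adjusted p of 0.42 and 0.21.

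The other named genes among the 20 largest rises had products of several kinds. Tmprss11a and Tmprss13, serine proteases anchored in the membrane, rose by 3.11 (SE 0.64) and 3.04 (SE 0.54). Serpinb5, maspin, a serpin of epithelial cells, rose by 3.06 (SE 0.57), and the calpain gene Capn13 by 2.65 (SE 0.52). Slc39a4, a zinc importer, rose by 2.61 (SE 0.47) and Chst5, a sulphotransferase that acts on N-acetylglucosamine, by 2.87 (SE 0.42). Chst5 stood well above background on 1 mild and 4 severe arrays and changed by 0.86 in the authors' table. Tmprss11a stood well above background on 1 mild and 5 severe arrays and changed by 1.22 in the authors' table. Trim29, a tripartite motif protein of stratified epithelia, rose by 2.80 (SE 0.43), Ankrd22 by 3.08 (SE 0.68), Fer1l4 by 2.93 (SE 0.56) and Tmem40 by 2.73 (SE 0.45). Adjusted p ranged from 0.0037 for Chst5 to 0.040 for Ankrd22, whose adjusted p was 0.053 with the damaged area left out and 0.097 with the slide as a block. Trim29, Tmem40, Capn13 and Slc39a4 had no overlap between the groups.

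The remaining 3 of the 20 largest rises had no symbol in the tables used here. The probe of 1 of them was not well above background on any mild array, so its rise was at least 3.86-fold.

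Sphingolipid genes, which include those of ceramide synthesis, gave 4 called members among 22 read, all of them rises. Cers3, the ceramide synthase for very long chain acids in skin, had levels of -2.28, -0.73 and 1.16 in the mild kidneys and of 1.24, 2.09 and 3.34 in the severe ones. The groups touched without overlapping, and the log2 change was 2.93 (SE 0.50, adjusted p = 0.0077), while a second probe for Cers3 read 1.60 at an adjusted p of 0.10. Elovl4, the elongase that makes the longest of these acids, rose by 1.47 (SE 0.28), while a second probe read 1.54 at an adjusted p of 0.27. Sptlc3, a subunit of serine palmitoyltransferase, rose by 1.40 (SE 0.25), and Acer2, an alkaline ceramidase, by 1.29 (SE 0.25). In each of these 3 genes severe replicate 6 lay within the mild range and the other 5 severe kidneys above it. Nipal4, which is needed for the skin's ceramide barrier and was on no list, rose by 2.71 (SE 0.43), with 1 mild and 5 severe arrays well above background, and by 0.78 in the authors' table. The median over all 22 sphingolipid genes was 0.08, close to that of all genes, so the rises were those of single members.

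Gasdermins, which form pores in membranes once cut, gave 2 called members among 5 read outside the study's list. Gsdmc4, which is on the study's list, was called at 2.61 (adjusted p = 0.012). Gsdmcl-ps is on no list and was named after its values were seen. It rose by at least 2.58-fold, since its probe was not well above background on any mild array. Its adjusted p of 0.018 belongs to the fitted log2 change of 2.55, which uses the mild readings below background. Gsdmc rose by 2.24 (SE 0.37, adjusted p = 0.0070) with no overlap of the kidneys, and Gsdma by 1.84 (SE 0.39, adjusted p = 0.034) with severe replicate 3 inside the mild range. In the authors' table Gsdmc changed by 2.25, and Gsdma by 0.86 at an adjusted p of 0.093. The Gsdmc genes are close copies of each other, so which of them a probe reads is uncertain. Gsdmc3 changed by 1.58 (SE 0.71) at an adjusted p of 0.44, and by 2.43 (SE 0.48) at an adjusted p of 0.020 with the damaged area left out.

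Among 14 transcription factors of epithelia, 3 were called and the median log2 change was 0.69. Tfap2c, an AP-2 factor, rose by 2.11 (SE 0.39, adjusted p = 0.012), Grhl1, a grainyhead factor, by 1.63 (SE 0.34, adjusted p = 0.025) and Nfe2l3, a basic leucine zipper factor, by 2.59 (SE 0.58, adjusted p = 0.045). In the authors' table they changed by 0.92, 1.55 and 1.46. The Tfap2c probe was well above background on 3 mild and 6 severe arrays. Nfe2l3 separated the groups, but its call was lost at an adjusted p of 0.053 with the damaged area left out, of 0.087 with the slide as a block, and of 0.15, 0.13 and 0.060 without severe replicate 2, severe replicate 5 or mild replicate 4. Trp63, the factor that defines basal cells, had levels of 2.82, 2.90 and 3.46 in the mild kidneys and of 2.27, 3.05 and 3.39 in the severe ones. Severe replicate 5 lay below the mild range and the other 5 severe kidneys within it, and the log2 change was -0.02 (SE 0.18, adjusted p = 0.98).

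Sequence upstream of the start site was read for the 71 named rises that have an entry in the RefSeq promoter table (GRCm38.p6), as the 250 bases before each annotated start and on both strands. The AP-1 motif TGACTCA stood in 12 of the 71, or 16.9%, against 4.34% of 13075 read genes and 5.16% of all 27025 genes in the table. With any centre base, TGANTCA, which contains the former, it stood in 14, or 19.7%, against 6.20% and 7.82%. The grainyhead motif AACCNGTT stood in 4, or 5.63%, against 1.99% of the read genes and 2.00% of all. The AP-2 motif GCCNNNGGC stood in 13, or 18.3%, against 21.7% and 15.4%, and the core motif of the aryl hydrocarbon receptor, GCGTG, in 15, or 21.1%, against 44.2% and 30.9%. TGAGTCA is the same motif as TGACTCA read on the other strand. These are shares of windows with matching letters and say nothing of binding. Shown are the stretches around TGANTCA, in capitals, for the envelope genes Ivl and Sprr1a, of which Sprr1a is on the study's list, for the 2 rises whose adjusted p equalled that of Krt15, and for the receptor gene Mrgprb2, and the stretch around GCGTG for Cyp1a1, each on the strand of its gene.
Ivl (chr3:92573820-92573876, minus strand): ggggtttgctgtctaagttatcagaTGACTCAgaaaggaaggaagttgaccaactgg
Sprr1a (chr3:92485966-92486052, minus strand): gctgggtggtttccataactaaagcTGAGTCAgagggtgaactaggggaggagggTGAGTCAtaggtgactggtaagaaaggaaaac
Arhgap40 (chr2:158512652-158512787, plus strand): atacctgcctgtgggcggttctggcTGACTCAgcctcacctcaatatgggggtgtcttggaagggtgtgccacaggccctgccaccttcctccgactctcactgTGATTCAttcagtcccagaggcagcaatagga
Fam25c (chr14:34355467-34355523, minus strand): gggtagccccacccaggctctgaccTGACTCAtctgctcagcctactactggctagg
Mrgprb2 (chr7:48558178-48558234, minus strand): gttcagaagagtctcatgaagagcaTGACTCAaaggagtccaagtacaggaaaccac
Cyp1a1 (chr9:57697534-57697588, plus strand): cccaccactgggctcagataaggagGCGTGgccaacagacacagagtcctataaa

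The nearest match ended 110 bases before the start site in Ivl and in Sprr1a, 34 in Arhgap40, 99 in Fam25c and 117 in Mrgprb2. A second match lay farther up in Sprr1a and in Arhgap40. In Arhgap40 the nearest match was TGATTCA and the farther one TGACTCA. Arhgap40, a GTPase activating protein, and Fam25c were named after their values were seen. Arhgap40 rose by 2.46 (SE 0.30, adjusted p = 0.000543) and Fam25c by 2.44 (SE 0.30, adjusted p = 0.000543), both with no overlap of the kidneys. The Mrgprb2 probe was not well above background on any mild array and was well above it on 5 of the 6 severe arrays, so its rise was at least 2.28-fold. The adjusted p of 0.0040 belongs to the fitted log2 change of 2.75, which uses the mild readings below background.

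Mrgprb2 is known as a receptor of connective tissue mast cells, and Cd200r3, a receptor of mast cells and basophils that was named after its values were seen, rose by 2.46 (SE 0.45, adjusted p = 0.012), with 1 mild and 4 severe arrays well above background. In the authors' table Cd200r3 changed by 0.73 and Mrgprb2 by 0.74. Other mast cell genes, looked up after these values were seen, did not follow at this test. Tpsb2, a tryptase, changed by 0.77 (SE 0.47, adjusted p = 0.59), Kit, the stem cell factor receptor, by -0.04 (SE 0.19, adjusted p = 0.97), Hdc, which makes histamine, by -0.74 (SE 0.56, adjusted p = 0.67) and Mcpt4, a chymase, by -0.80 (SE 0.52, adjusted p = 0.61).

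Signalling genes gave few calls. Cyp1a1, the enzyme most strongly induced by the aryl hydrocarbon receptor, had levels of -4.25, -3.89 and -3.03 in the mild kidneys and of -3.32, -1.56 and -1.21 in the severe ones. Severe replicate 6 lay within the mild range and the other 5 severe kidneys above it. The gene rose by 1.82 (SE 0.32, adjusted p = 0.0085). It was the 1 call among 10 genes of this pathway, whose median was 0.12, and the repressor Ahrr changed by 2.65 (SE 0.74) at an adjusted p of 0.15, although every severe kidney lay above every mild one for Ahrr. Msx2, a homeobox target of BMP signals, had levels of -2.97, -2.46 and -1.46 in the mild and of -1.35, -0.81 and 0.43 in the severe kidneys. No kidneys overlapped for Msx2, and it rose by 1.65 (SE 0.28, adjusted p = 0.0077) as the 1 call among 20 BMP genes, whose median was -0.05. The ligands Bmp3 and Bmp8b, on no list and named after their values were seen, rose by 1.53 (SE 0.31) and 1.30 (SE 0.26). In the authors' table they changed by 1.38 and 0.71.

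Crabp2, which carries retinoic acid to its receptors, was the 1 call among 17 retinoic acid genes. It rose by 1.14 (SE 0.25, adjusted p = 0.036), the groups did not overlap, and the adjusted p was 0.053 with the damaged area left out and 0.071 with the slide as a block. The list's median was 0.44. None of 14 Hedgehog genes was called, the median was 0.16, and the 2 members with the highest level were Smo, the pathway's signal transducer, at 0.01 (SE 0.11) and Ihh, a ligand, at 0.29 (SE 0.23).

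Of the S100 calcium-binding proteins, named after their values were seen, S100a6 rose by 2.02 (SE 0.44), S100a14 by 2.15 (SE 0.48) and S100a5 by 1.32 (SE 0.23), each with no overlap of the kidneys. With the slide as a block S100a6 and S100a14 were not called, at adjusted p of 0.077 and 0.058. Sfn, the 14-3-3 protein of epithelial cells, rose by 1.84 (SE 0.35).

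Msln, mesothelin, a surface protein of mesothelium, had levels of -1.50, 0.46 and 0.84 in the mild kidneys and of 1.54, 2.35 and 4.00 in the severe ones. All severe kidneys lay above all mild ones, and mild replicate 1 stood far below the other mild kidneys. Msln rose by 2.33 (SE 0.42, adjusted p = 0.010). The other mesothelium markers read were Upk3b, which urothelium also carries, at 1.88 (SE 0.43, adjusted p = 0.052) and Gpm6a, a membrane glycoprotein, at -0.19 (adjusted p = 0.83), so 1 of 3 was called.

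Some rises passed the test only with the damaged area left out. With the damaged area left out, 125 genes were higher (0.447%) and 5 lower (0.0179%), and 114 of the 119 calls were shared. Among the rises gained, named after their values were seen, was Rab27b, a GTPase that moves uroplakin vesicles to the surface of umbrella cells. Its level in severe replicate 4 was -6.58, and without that value the log2 change went from 0.69 to 1.92 (SE 0.31, adjusted p = 0.0067). Slc14a1, a urea transporter found in urothelium as well as in vessels of the medulla, went from 0.67 to 1.63 (SE 0.36, adjusted p = 0.043), after a level of -4.55 in the same kidney. With the slide as a block as well, the adjusted p was 0.018 for Rab27b and 0.051 for Slc14a1, which lost its call.

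**Figure D3:**
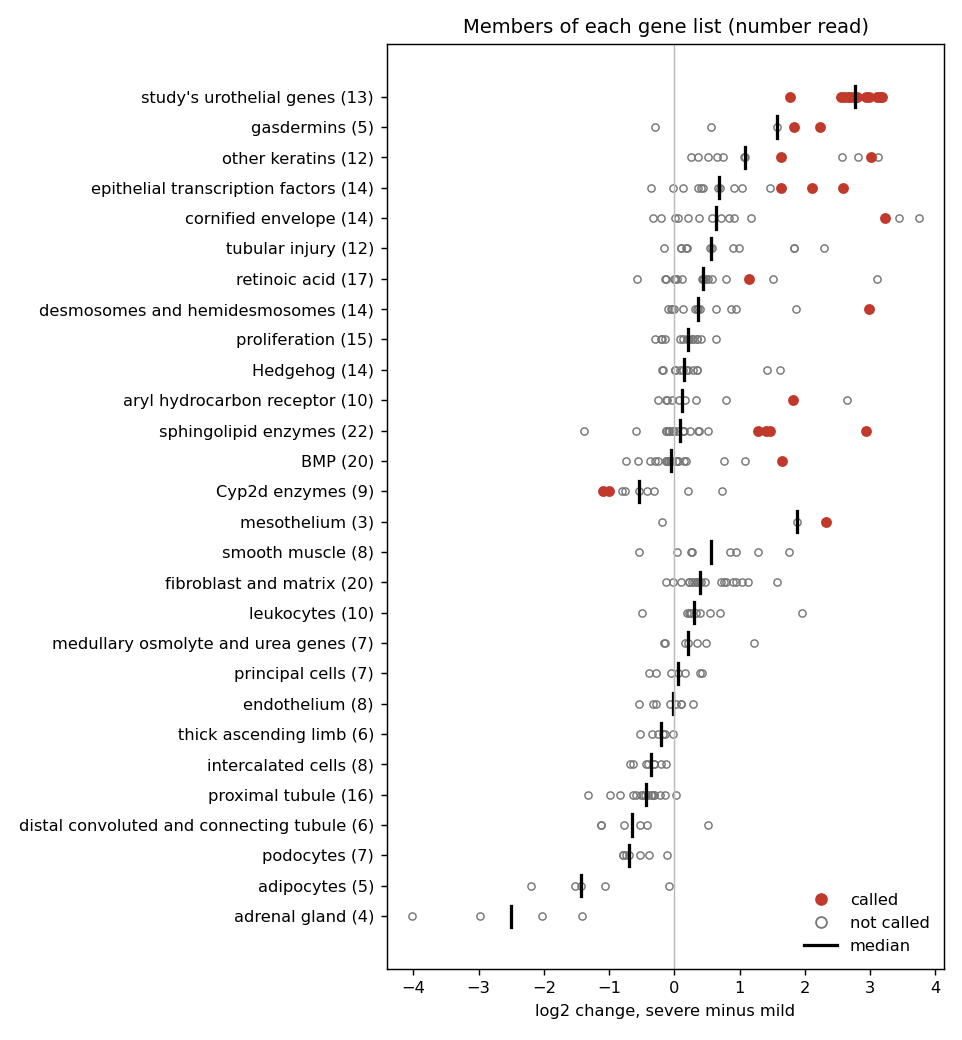
Log2 change from mild to severe (x axis) of each gene read in 28 gene lists (y axis, with the number read), filled red where called at an adjusted p under 0.05 and at least 2-fold, and with a bar at the list's median. The study's urothelial list has a median of 2.78 and all 13 members called, while the 5 tubule segment and cell lists have medians at or below 0.05 and no call.

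Genes that fell were few. Cyp2d12 and Cyp2d22, cytochrome P450 enzymes of a family with many near copies, so that the copy read is uncertain, were the 2 called. Neither had a value on the array of severe replicate 4. The study, from these same kidneys, reported Cyp2d22 as its only gene at least 2-fold lower in severe than in mild kidneys. Cyp2d12 stood at 3.12, 3.56 and 3.78 in the mild kidneys and at 1.91, 2.51 and 3.08 in the 5 severe kidneys measured. The groups did not overlap, and the log2 change was -1.003 (SE 0.21, adjusted p = 0.031). Cyp2d22 stood at 1.20, 1.74 and 2.03 against 0.33, 0.40 and 1.26, with severe replicate 6 inside the mild range, a log2 change of -1.09 (SE 0.23) and an adjusted p of 0.033. Against control in the same fit, Cyp2d12 changed by 0.65 in mild kidneys (adjusted p = 0.063) and by -0.35 in severe ones (adjusted p = 0.28). Cyp2d22 changed by 0.72 (adjusted p = 0.063) and by -0.38 (adjusted p = 0.30). None of these differences passed the test, and for both genes the control mean lay between the mild and the severe mean. With the slide as a block the adjusted p was 0.0638 for Cyp2d12 and 0.0654 for Cyp2d22, and without severe replicate 5 it was 0.13 and 0.12. Both calls were also lost without mild replicate 1, 4, 5, 6 or 7, without severe replicate 1, 2 or 3, and with scaling by the array median. The median of the 9 Cyp2d genes was -0.53, and 7 of the 9 were negative.

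Severe kidneys lay below all mild ones in 0.404% of all genes, 113 in number, of which 16 were read by a lost spot. With the damaged area left out, the falls called were Cyp2d12, Cyp2d22, 1 transcript with no symbol and 2 more genes, named after their values were seen. Slc6a19, the neutral amino acid carrier of the proximal tubule brush border, stood at 3.65, 4.07 and 4.50 in the mild kidneys and at -1.73, 2.47 and 3.56 in the severe ones, where the lowest value was that of the damaged array. Every severe kidney was lower than every mild one. The log2 change was -2.11 (SE 0.53, adjusted p = 0.089) with all values and -1.38 (SE 0.26, adjusted p = 0.015) without that of the damaged area. Nox4, the NADPH oxidase of renal tubules, went from -0.93 (adjusted p = 0.24) to -1.24 (SE 0.23, adjusted p = 0.014), and severe replicate 4 was the 1 severe kidney above the mild range.

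Podocyte genes gave no call at 2-fold. All 7 members had a negative change, with a median of -0.69, 1 passed the adjusted p alone, and severe replicates 3 and 4 lay within the mild range of the list's mean. Ptpro, a phosphatase of the podocyte surface, fell by 0.78 on the log2 scale (SE 0.18, adjusted p = 0.049), a call lost with the slide as a block at 0.052 and without severe replicate 2 or 5 at 0.16 and 0.10. Nphs1, nephrin, changed by -0.74 (adjusted p = 0.12), or by -0.92 (SE 0.17, adjusted p = 0.013) with the damaged area left out. Clic5, a chloride channel protein of foot processes and among the members with the highest level, changed by -0.38 (SE 0.12, adjusted p = 0.24). Past the adjusted p alone, 31 genes (0.111%) were lower and 143 (0.511%) higher with the damaged area left out. Iqgap2, a scaffold protein named after its values were seen, lay just short of 2-fold among the falls, at -0.99 (SE 0.18, adjusted p = 0.010) with all values and -0.92 (adjusted p = 0.023) with the damaged area left out, with every severe kidney below every mild one.

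No gene of the tubule segment lists was called. The median was -0.43 in 16 proximal tubule genes, 15 of which were negative, -0.21 in 6 genes of the thick ascending limb, -0.65 in 6 genes of the distal convoluted and connecting tubule, -0.36 in 8 intercalated cell genes and 0.05 in 7 principal cell genes. With the damaged area left out the median was -0.46 for the proximal tubule, -0.32 for the thick ascending limb and -0.02 for principal cells, and it stayed as given for the other 2 lists. Severe replicate 5 set much of this. Without it the proximal tubule median was -0.12, that of the thick ascending limb -0.04 and that of the distal list -0.39. Slc12a3, the thiazide-sensitive carrier of the distal convoluted tubule, stood at 2.94, 3.29 and 3.91 in the mild kidneys and at 0.79, 2.26 and 3.08 in the severe ones. Severe replicate 4 lay within the mild range and the other 5 severe kidneys lay below it, with a log2 change of -1.13 (SE 0.28, adjusted p = 0.080). Pvalb, parvalbumin of the same segment, changed by -0.77 (SE 0.49).

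The named members of these lists did not pass the test. Kap and Miox, proximal tubule genes, changed by 0.02 (SE 0.18) and -0.31 (SE 0.24). Umod, uromodulin, and Egf, both of the thick ascending limb, changed by -0.02 (SE 0.12) and -0.53 (SE 0.23). The aquaporins Aqp2 and Aqp3 changed by -0.05 (SE 0.28) and 0.05 (SE 0.19). The intercalated cell genes Rhcg and Slc26a4, an ammonia channel and an anion exchanger, changed by -0.31 (SE 0.17) and -0.68 (SE 0.24). In the medulla, the aldose reductase gene Akr1b3 changed by 1.22 (SE 0.39, adjusted p = 0.25), in a list of 7 with a median of 0.21.

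**Figure D4:**
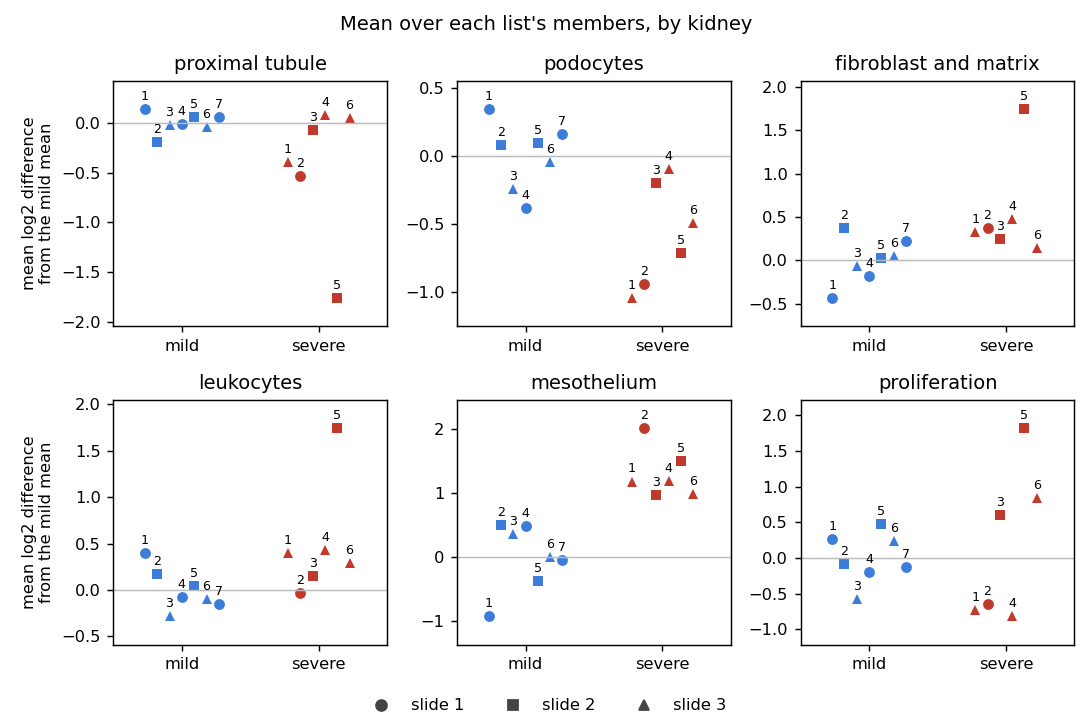
Mean log2 difference from the mild group mean (y axis) over the members of 6 lists in each mild and severe kidney (x axis), with replicate numbers beside the points, the point shape for the slide, and the damaged area of severe replicate 4 left out. Severe replicate 5 is lowest for proximal tubule genes at -1.76 and highest for fibroblast and matrix, leukocyte and proliferation genes at 1.74, 1.75 and 1.83. The mean of the 3 mesothelium genes read (2 for severe replicate 4) is higher in all 6 severe kidneys, although Gpm6a changed the other way.

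Injury, matrix, immune and cell cycle genes gave no call. In 12 genes of tubular injury the median was 0.56, and 0.06 without severe replicate 5. Lcn2, which makes the urinary injury marker NGAL, stood at -0.87, -0.32 and 1.27 in the mild kidneys and at -0.27, 1.75 and 5.48 in the severe ones. Severe replicate 3 lay within the mild range and severe replicate 5 far above the others, and the log2 change was 2.30 (SE 1.03, adjusted p = 0.44), with an exact two-sided permutation p = 0.0052. Clu, clusterin, changed by 0.11 (SE 0.44) and Spp1, osteopontin, by 0.18 (SE 0.40). The 15 proliferation genes had a median of 0.21, and -0.12 without severe replicate 5. Mki67, present in dividing cells, stood at 0.58, 1.14 and 1.67 against 0.14, 1.26 and 3.11, with 3 severe kidneys above the mild range and 1 below it, and a log2 change of 0.28 (SE 0.38). Pcna, the replication clamp, changed by -0.30 (SE 0.15) and Birc5, survivin, by 0.09 (SE 0.47), or by 0.53 with the damaged area left out.

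Of 20 fibroblast and matrix genes 18 were positive, with a median of 0.40 and of 0.21 without severe replicate 5. Sparc, a matrix glycoprotein, changed by 0.10 (SE 0.13) and Col1a2, a chain of collagen I, by 0.22 (SE 0.31). The median of 8 smooth muscle genes was 0.57, with Tagln, transgelin, at 0.86 (SE 0.31, adjusted p = 0.32) and Smtn, smoothelin, at 0.03 (SE 0.13). The median of 10 leukocyte genes was 0.30, with Csf1r, the macrophage growth factor receptor, at 0.25 (SE 0.11) and Itgam, an integrin chain of myeloid cells, at -0.50 (SE 0.61). That of 8 endothelial genes was -0.02, with Plvap at 0.11 (SE 0.17) and Flt1 at -0.07 (SE 0.11). The adrenal genes Cyp21a1 and Star changed by -2.98 (SE 1.39) and -2.02 (SE 1.24), and the adipocyte genes Fabp4 and Cidec by -0.09 (SE 0.47) and -1.07 (SE 1.53). Their lists had medians of -2.50 and -1.43, and the adrenal median was -1.48 without mild replicate 4.

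Most rises also lay above the control level in severe kidneys. The severe mean was above the control mean for 113 of the 117 rises, and 110 passed an adjusted p under 0.05 for severe minus control in the same fit, where 6.22% of all genes did with severe higher and 8.9% with severe lower. This contrast shares the severe kidneys with the one that chose the genes. In 20 rises the mild mean lay below the control mean, and in 6 of them the mild level was lower than control at an adjusted p under 0.05, as in 2.76% of all genes, while in 3 the mild level was higher than control, as in 2.87%. These 6 share the mild kidneys between both contrasts. Apart from Snx31 they were named after their values were seen.

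Rhov, a small GTPase, was lower in mild than in control kidneys by a log2 change of -2.12 (adjusted p = 0.000701), and higher in severe than in mild kidneys by 1.58 (SE 0.31, adjusted p = 0.017), which left a difference of -0.54 between severe and control. Galnt6, which starts O-linked glycans, had -1.84 from control to mild and 1.72 from mild to severe, and Hsd17b2, which inactivates oestradiol and testosterone, had -1.59 and 1.57. Ankrd35 had -1.49 and 1.27, Fmo5, a flavin monooxygenase, had -1.31 and 1.68, and Snx31 had -1.52 and 2.60. For Rhov, Galnt6, Hsd17b2, Ankrd35 and Fmo5 the difference between severe and control kidneys had adjusted p of 0.26, 0.86, 0.98, 0.62 and 0.52, which does not show that the levels were alike. Snx31 lay 1.09 above control at an adjusted p of 0.060. Galnt6 and Ankrd35 were higher in all 6 severe kidneys than in any mild kidney, and Rhov, Hsd17b2 and Fmo5 in 5 of the 6. From mild to severe, a second probe for Galnt6 read 1.14 at an adjusted p of 0.36. Further probes for Fmo5 read 1.42 and 0.82, at adjusted p of 0.045 and 0.27.

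**Figure D5:**
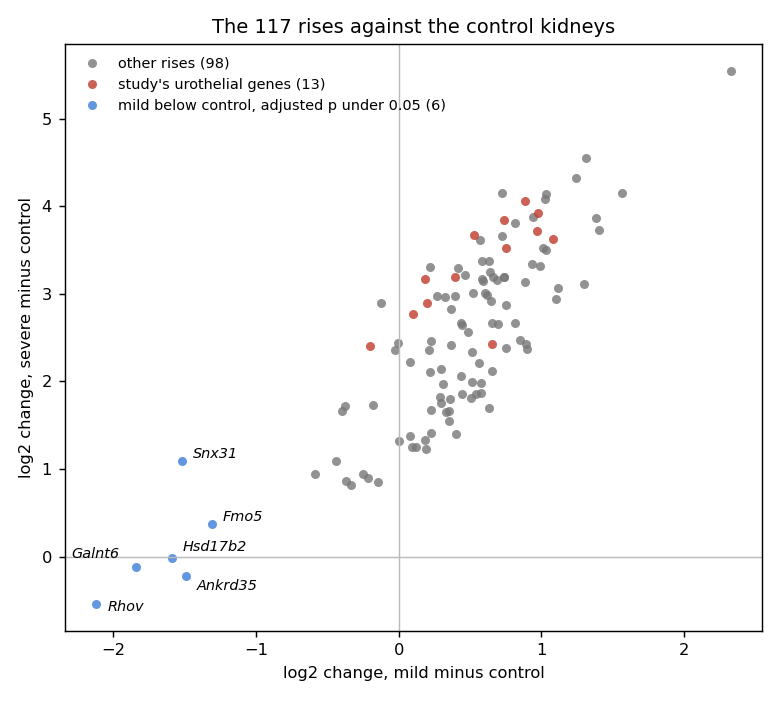
Log2 change of each of the 117 called rises from control to mild (x axis) and from control to severe (y axis), with the study's 13 urothelial genes in red and the 6 genes that were lower in mild than in control kidneys at an adjusted p under 0.05 in blue. Both axes share the control kidneys. The 6 blue genes lie at -1.31 or less on the x axis and between -0.54 and 1.09 on the y axis.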

How the data were processed

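The 24 arrays were one-colour Agilent mouse arrays of total RNA from whole kidneys. The authors deposited the output of Agilent Feature Extraction 10.10 for each array, an intensity per spot after background subtraction and spatial detrending, with no normalization between arrays. Their deposited table holds whole-number intensities normalized between arrays by a method not given in the sources used here, with array medians of 6.23 to 6.27 on the log2 scale, and served as an alternative. Here log2 intensities were centred on the 75th percentile of each array, spots with an outlier mark were dropped, and a probe was kept when 5 or more arrays read it well above background, which left 38834 of 55681 probes. Probes got gene names through RefSeq accessions (GRCm38.p6), 21641 of the kept ones. A gene was read by its probe of highest mean, which gave 27958 genes or transcripts, 16492 with a symbol. Called genes had 30 further probes in 24 genes, of which 14 were called, 1 had the other sign and 4 changed by under 0.5.

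All 4 groups were fitted together with limma 3.58.1 in R 4.3.3, without covariates, and p-values of severe minus mild were adjusted by Benjamini-Hochberg. Calls needed an adjusted p under 0.05 and at least 2-fold. For a gene below background on all mild arrays the fold is a minimum, computed with the mild arrays set no lower than their dimmest detected probe. On simulated data for this comparison, 50% of 100 probes changed by 1 log2 unit and 78% of 100 changed by 2 were recovered among 38437 probes, with 5 false calls. The simulated noise had the same spread in every group and was independent between probes, and no fold minimum was applied. The real severe arrays varied more than the mild ones, so these figures are no error rate of the calls reported here. The number of arrays limits the precision.

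The members, gene lists and the rule for named genes were chosen with earlier results of these data known. The 28 lists held 329 genes, of which 306 were read. Named were the 20 largest rises and the falls among calls outside the study's urothelial list, each called list member, the 2 members of highest level of a list without a call, the extremes of the study's list, and Mki67, Lcn2 and Trp63. Other genes are marked in the text, and some genes under this rule are not reported here. Alternatives changed the scaling, background correction, starting table, filter, probe choice, samples, blocks, weights and thresholds, or left out each array. Figures were drawn with matplotlib 3.10.9.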

Additional observations from a re-analysis of the deposited data

Results flagged for a closer look

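In 186 groups of kidneys, the mild and the severe kidneys of 93 named genes, 22 held 1 kidney that stood apart from its group by Dixon's criterion, which chance meets in about 5% of groups. The groups share the same kidneys and some genes were named after their values were seen, so the 22 measure no excess over that share. All values are log2 levels relative to the array's 75th percentile. Severe replicate 2 stood above the other severe kidneys in Krt15 at 2.03, Snx31 at -1.84, Fmo5 at 5.62 and Fam25c at 5.47. Mild replicate 2 stood above the other mild kidneys in Tmprss11a at -3.95, Chst5 at -5.34, Nipal4 at -5.23 and Lcn2 at 1.27. Severe replicate 5 stood above its group in Col1a2 at 7.22 and below it in Kap at 8.11, Miox at 6.83 and Pvalb at 0.82. Severe replicate 4, the kidney on the damaged array, stood below its group in Slc6a19 at -1.73, Slc14a1 at -4.55, Rab27b at -6.58 and Gsdmc3 at -1.26. Mild replicate 4 stood above its group in the adrenal genes Cyp21a1 at 6.96 and Star at 4.26. Mild replicate 1 stood below its group in Msln at -1.50, Smo at 3.42 and Cidec at -7.09 and above it in Itgam at 5.85.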

How the results depend on the processing

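Against 117 genes higher and 2 lower, the 13 mild and severe arrays alone gave 0 and 0, also with the damaged area left out, and the 18 mgb-/- arrays gave 38 and 0, or 33 and 0 with that area left out. With 1 variance per group 18 and 0 were called, or 54 and 2 with the area left out, and array quality weights gave 23 lower. Genes lower numbered 0 with the slide as a block, 1 with the authors' table, 1 without a filter on dim probes, 1 with probes above background on all arrays, 5 with the damaged area left out, 10 at an adjusted p under 0.1 and 11 without a fold minimum. Leaving out 1 array at a time gave 48 to 164 higher and 0 to 21 lower, the extremes being the arrays of severe replicates 2 and 6 for genes higher, and severe replicate 4 for the most genes lower. With the replicate number as a block 47 genes were higher and 1 lower. The number is no pairing that the labels explain: deviations of same-numbered kidneys correlated at 0.65, 0.26, 0.05, -0.02, 0.01 and 0.37, and 3 of 6 severe kidneys matched best with their own number. None of the named calls changed sign under any setting that read the gene, though 537 of their 2379 values were not called. The medians of the BMP, Hedgehog, principal cell, proliferation, sphingolipid, medullary, endothelial, thick ascending limb and adipocyte lists changed sign under some setting. The causes were not tested.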
